A study of Mus musculus with 3 samples.

Results

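The cells described here were small intestinal cells of the mouse that ranked highest for S100g, Slc40a1, Slc11a2, Reg1, Otop3 and Slc30a10. S100g binds calcium in the cytosol, Slc40a1 (ferroportin) exports iron, Slc11a2 (DMT1) takes iron up, Reg1 is a secreted lectin, Otop3 is a proton channel and Slc30a10 exports manganese. In each library the top 3% of eligible cells by the sum of the file values of these 6 genes were taken, which gave 284 member cells of 12653 cells in all. Cells with 1500 or more UMIs per 10000 of Defa genes (Paneth cell defensins) or 30 or more of Agr2 (a goblet and Paneth cell gene) were not eligible, and a UMI is a tag that counts 1 captured mRNA molecule. The vehicle library AOS 0 gave 94 members of 3124 eligible cells, the busulfan library B + A 0 gave 66 of 2200, and B + A 10, with busulfan and AOS, gave 124 of 4119.

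The mice were male ICR mice, 3 weeks old at the start of treatment, and samples were taken after it ended. AOS 0 received vehicle (water), B + A 0 received a single injection of busulfan (an alkylating anticancer drug) at 40 mg/kg and vehicle, and B + A 10 received the same busulfan injection and AOS (alginate oligosaccharides) at 10 mg/kg, with daily gavage for 2 weeks. Each group was 1 droplet library of pooled cells of 6 mice, so treatment and library cannot be told apart and no p-value is given between treatments. The title, description and treatment fields agree on these groups, but the source names of 2 samples name another treatment, and the first 3 fields were followed. The libraries held 3195 to 5352 cells and 23003083 to 35258551 UMIs, with a median UMI number per cell of 7371 for AOS 0, 6407 for B + A 0 and 3505 for B + A 10. Members had a median of 5163, 4987 and 2637 UMIs in the same order, and 82 barcodes occurred in more than 1 library, of which 1 was in a member.

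Dietary iron and calcium are absorbed mainly in the duodenum. Iron is reduced at the brush border by Cybrd1, enters through Slc11a2, is stored in ferritin (Fth1, Ftl1) or leaves through Slc40a1 and is oxidised by Heph. Calcium enters through Trpv6, crosses the cytosol bound to S100g and is pumped out by Atp2b1, and the vitamin D receptor Vdr drives transcription of S100g and Trpv6. The labels name the tissue only as intestine, so the position along the gut was read from marker genes and not from dissection.

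S100g lies on chrX:162961992-162964599 (minus strand, GRCm38) and Trpv6 on chr6:41620624-41636405 (minus strand). The 250 bases before the RefSeq start of each gene are printed (GRCm38.p6, minus strand, 5′ to 3′). S100g, the calcium carrier, was a ranking gene and Trpv6, the calcium channel, was not. Capitals mark TTAATNATT (HNF1), CAAAGTCCA (HNF4) and AGGTCA on either strand, and none of the marked stretches overlap. AGGTCA is only a part of the elements of the vitamin D receptor and related receptors, and not a whole element.
S100g, chrX:162964600-162964849: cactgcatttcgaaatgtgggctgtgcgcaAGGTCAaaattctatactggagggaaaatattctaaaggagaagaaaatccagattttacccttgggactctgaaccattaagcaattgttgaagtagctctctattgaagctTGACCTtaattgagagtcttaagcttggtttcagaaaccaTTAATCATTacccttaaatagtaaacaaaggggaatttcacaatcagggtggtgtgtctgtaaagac
Trpv6, chr6:41636406-41636655: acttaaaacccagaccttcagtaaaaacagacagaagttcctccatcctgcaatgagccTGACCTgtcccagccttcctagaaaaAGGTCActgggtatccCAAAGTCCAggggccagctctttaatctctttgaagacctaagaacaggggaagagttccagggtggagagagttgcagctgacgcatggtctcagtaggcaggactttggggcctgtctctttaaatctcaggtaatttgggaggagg
The S100g window held TTAATNATT and AGGTCA, and the Trpv6 window held CAAAGTCCA and AGGTCA. Of 32851 windows of this length, 1.4% held TTAATNATT, 0.384% held CAAAGTCCA and 14% held AGGTCA. The GATA factor motif AGATAA stood in 9.99% of all windows and was in neither of these. Windows of other genes named here were searched too. Among all genes searched, TTAATNATT was found for S100g only and CAAAGTCCA for Trpv6 only. AGGTCA was also found for Ncoa4, Papss2, Tmprss15 and Slc4a7, and AGATAA for Papss2 and Enpp7. The windows of Reg1, Otop3, Slc30a10, Cybrd1, Atp2b1, Fth1 and Slc34a2 held none of these motifs. The motifs were chosen after the sequences had been seen, and a match is a description of letters and not a bound site.

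The score, the sum of the 6 natural log values, ran in a long tail with a shoulder of high cells. In library order (AOS 0 first, B + A 10 last) its median was 1.14, 1.46 and 1.45 over eligible cells and 14.2, 15.8 and 15.9 over members. The lowest member scored 9.42, 12.7 and 13.4, and the highest eligible cell that was not a member scored 9.36, 12.6 and 13.4. The line was therefore lowest in AOS 0. At the B + A 10 line, 57 cells of AOS 0 (1.82% of eligible cells, exact binomial 95% interval 1.38% to 2.36%), 61 of B + A 0 (2.77%, 2.13% to 3.55%) and 124 of B + A 10 (3.01%, 2.51% to 3.58%) remained. These shares rest on the ranking genes and are given as a description. Their intervals cover the counting of cells in 1 pooled library and not the spread between mice or libraries. Depth differed between the libraries, the line was not adjusted for it, and its part in these shares was not tested. Every member held UMIs of at least 3 of the 6 genes, and all 6 were seen in 36, 32 and 33 members in library order.

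**Figure D1:**
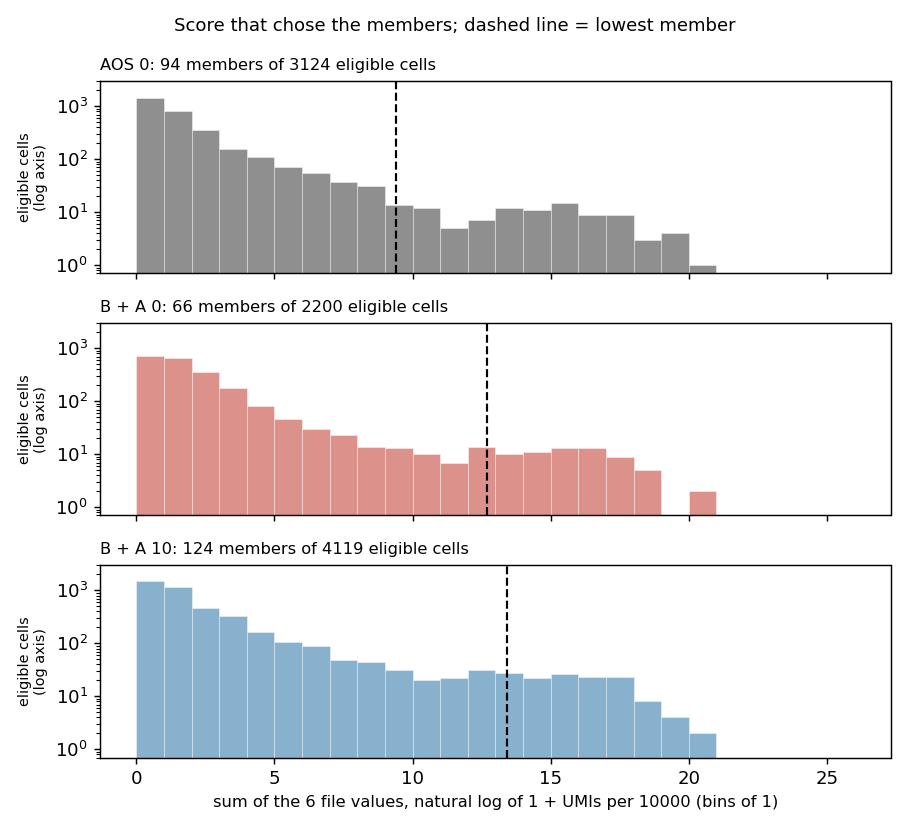
Number of eligible cells (log axis) against the score in bins of 1, with 1 panel per library and a dashed line at the lowest member. The line stands at 9.42, 12.7 and 13.4 in library order, and in AOS 0 it lies in the falling part of the counts, below the rise from a score of 13.

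For the class comparisons a level is the mean over cells of UMIs per 10000 UMIs of a cell, given in library order. Members were compared with other enterocytes (2295 eligible cells in the top 30% of their library for Alpi, Anpep, Apoa1, Apob, Fabp2, Mttp and Sis), with proximal-ranked cells (252 cells, top 3% for Rbp2 and Adh6a) and with ileal-ranked cells (284 cells, top 3% for Fabp6 and Slc10a2). Classes were filled in the order members, proximal-ranked, ileal-ranked and other enterocytes, so they held no cell in common. A member in the top 3% for Rbp2 and Adh6a thus counted only as a member. This left 78, 60 and 114 proximal-ranked cells beside 94, 66 and 124 members, so this class lacks the proximal cells most like members. The test was limma's moderated test on log2(level + 0.1) with the library as a block, and a gene was called at a Benjamini-Hochberg adjusted p under 0.05 and a fold of at least 1.5. Its p-values measure the spread over 3 libraries of 3 treatments, and the fitted fold understates the change of genes with low levels. Genes that chose any class were left out of the counts.

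The 6 ranking genes are given first, without a test, since they chose the cells. S100g had levels of 127, 198 and 217 in members and of 1.27, 2.29 and 6.05 in other enterocytes. Slc40a1 stood at 11.5, 10.2 and 11.7 against 0.513, 0.411 and 0.743, and Slc11a2 at 4.56, 3.65 and 5.75 against 0.482, 0.406 and 0.505. Reg1 stood at 139, 156 and 153 against 8.1, 10 and 10.7. Otop3 reached 1.62, 2.27 and 2.97 and Slc30a10 3.3, 4.32 and 4.14, and both were under 0.7 in every library of other enterocytes. All 6 genes were thus higher in members than in other enterocytes in every library, as the rule requires.

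Of 6322 genes counted, 153 (2.42%) were higher and 213 (3.37%) lower in members than in other enterocytes. Against proximal-ranked cells 278 (4.40%) were higher and 140 (2.21%) lower, and against ileal-ranked cells 1300 (20.6%) were higher and 434 (6.86%) lower. Of the 153 genes higher than in other enterocytes 97 (63.4%) were also higher than in proximal-ranked cells, which is 34.9% of those 278. Of the 213 lower genes 98 (46%) were also lower than in proximal-ranked cells, which is 70% of those 140. In all 3 contrasts 83 genes were higher and 55 lower. The median log2 difference over all genes was 0.00 against other enterocytes, 0.06 against proximal-ranked cells and 0.22 against ileal-ranked cells.

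The iron genes were the list with the most members called higher. Of 13 iron genes tested outside the rule, 7 were higher in members than in other enterocytes and 0 were lower, with a median log2 difference of 0.73 beside 0.00 over all genes. Over all genes counted 2.42% were higher and 3.37% lower than in other enterocytes, the shares to set beside this and each list below. Cybrd1, the ferric reductase of the duodenal brush border, had levels of 1.56, 0.735 and 0.741 in members against 0.00862, 0.0153 and 0.0236 in other enterocytes, and no UMI in proximal-ranked cells. Member values were above all others in each library, and the limma log2 difference from other enterocytes was 3.19 ± 0.27 (SE; adjusted p = 4.2e-09). A count of 0 allows 0.0654, 0.0993 and 0.0832 UMIs per 10000 in proximal-ranked cells. Cybrd1 was sparse even so, with UMIs in 19, 12 and 13 members.

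Fth1, the ferritin heavy chain, had levels of 201, 221 and 187 in members, 60.3, 64.9 and 58.3 in other enterocytes and 89.2, 102 and 87.9 in proximal-ranked cells. The classes did not overlap, and the difference from other enterocytes was 1.73 ± 0.05 on the log2 scale (limma, adjusted p = 2.7e-17), a 3.31-fold higher level. Ftl1, the light chain, stood at 17.9, 21.7 and 18 against 15.3, 16.8 and 13.6, which passed the p threshold (adjusted p = 0.0045, limma) but not the fold, at 1.26-fold. Ncoa4, the receptor that delivers ferritin to lysosomes, stood at 4.55, 5.12 and 4.99 against 0.755, 0.617 and 0.67 (log2 difference 2.68 ± 0.15, limma adjusted p = 1.9e-12). Both the storage chain and its delivery receptor were therefore higher in members of every library.

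Slc46a1, which carries folate and has been described as a heme carrier, was 2.01, 1.8 and 2.63 in members against 0.683, 0.529 and 0.818 (log2 difference 1.53). Epas1 (HIF-2α, an oxygen and iron responsive activator of iron genes) differed by 1.25 on the log2 scale, Slc39a14 (a zinc and iron importer) by 0.85 and Ireb2 (iron regulatory protein IRP2) by 0.73. Levels of these last 3 genes were under 1 UMI per 10000 in every class shown here, and Ireb2 lost its call without any 1 of the 3 libraries (log2 differences of 0.64 to 0.89). Epas1 and Slc39a14 lost theirs without B + A 0, at 1.00 and 0.74. Heph, the exit ferroxidase, stood at 1.81, 1.31 and 1.28 against 1.71, 1.18 and 1.27 and was not called (adjusted p = 0.87, limma). Tfrc, the transferrin receptor, stood at 1.57, 0.668 and 0.718 against 0.672, 0.495 and 0.583, and was called against proximal-ranked cells only (log2 difference 1.07; limma adjusted p = 0.00082). The iron chaperones Pcbp1 and Pcbp2 and the iron regulatory protein Aco1 were not called against other enterocytes or proximal-ranked cells, and Hmox1 and Hfe were too low to be tested. Flvcr1 was not in the table.

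The list of calcium, phosphate and magnesium genes showed no common direction. Of 9 tested outside the rule, Atp2b1 and Cldn2 were higher in members than in other enterocytes and Slc34a2 was lower, with a median log2 difference of 0.02. Atp2b1, the calcium pump of the basolateral side, stood at 10.5, 10.5 and 10.5 in members, 1.52, 1.19 and 1.5 in other enterocytes and 1.41, 1.86 and 2.56 in proximal-ranked cells. Members were highest in every library, with a log2 difference of 2.83 ± 0.13 from other enterocytes (limma, adjusted p = 5.3e-14). Trpv6, the entry channel, had levels of 0.553, 0.35 and 0.155 in members against 0.00682, 0.0135 and 0.0342 in other enterocytes and no UMI in proximal-ranked cells. It did not reach the filter on low values (a mean of 0.1 over the 12 class values) and has no test.

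Vdr stood at 2.36, 2.96 and 2.67 in members and 1.7, 1.68 and 1.85 in other enterocytes. The groups did not overlap, but the fold lay just under the line of 1.5 (log2 difference 0.58, limma adjusted p = 0.0076), and Vdr was called against proximal-ranked cells (0.62). Its partner Rxra was called against proximal-ranked cells only (0.78). Cldn2, a tight junction pore for cations, stood at 0.511, 1.01 and 0.672 against 0.238, 0.344 and 0.337. It was lower than in ileal-ranked cells (log2 difference -0.68, limma adjusted p = 0.01). Slc34a2, the sodium phosphate cotransporter, stood at 0.152, 0.029 and 0.0914 in members, 2.6, 1.72 and 1.75 in other enterocytes and 0.602, 0.465 and 0.451 in proximal-ranked cells. It had the largest decrease of all genes counted against other enterocytes, at -3.50 ± 0.16 on the log2 scale (limma, adjusted p = 5.3e-14), and was lower in every library. The vitamin D enzymes Cyp24a1 and Cyp27b1, the magnesium channel Trpm6 and the sodium calcium exchanger Slc8a1 had levels of at most 0.0312 in members.

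**Figure D2:**
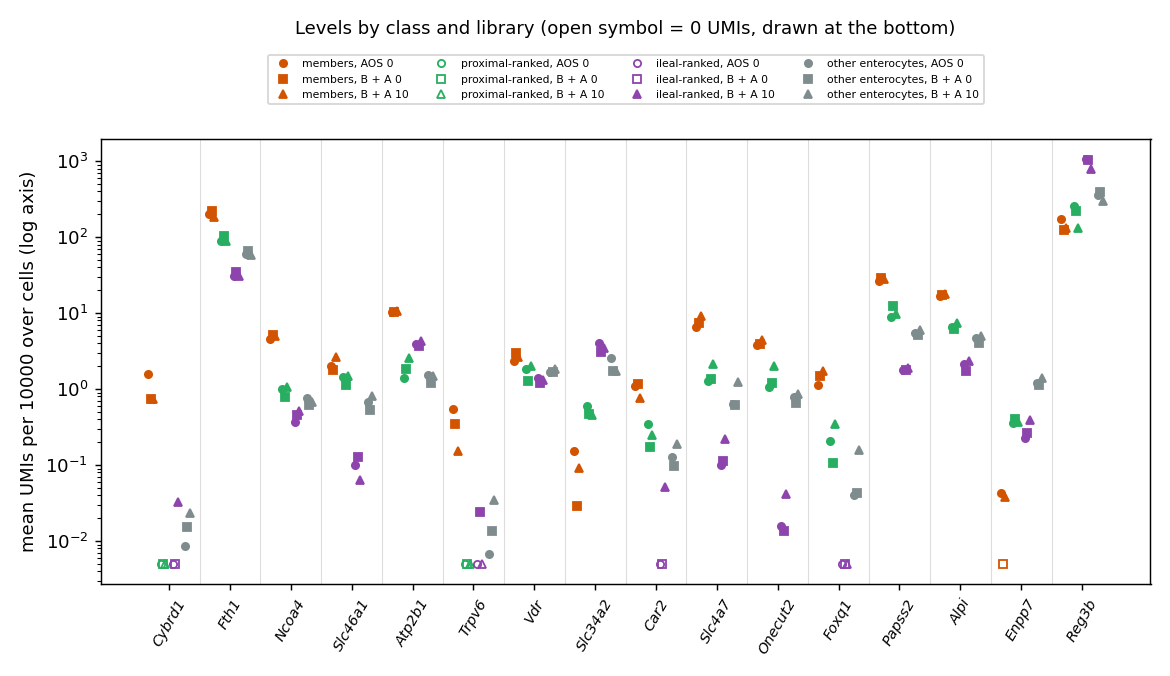
Mean UMIs per 10000 over cells (log axis) of 16 genes in the 4 classes (colours) and 3 libraries (symbols), with open symbols at the bottom for 0 UMIs. Members (orange) stood highest for the iron genes Cybrd1, Fth1 and Ncoa4, with Fth1 at 187 to 221, and lowest of the 4 classes for Slc34a2 and Enpp7.

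Of 10 zinc, manganese and copper genes tested, Slc39a4 (intestinal zinc importer; 3.69, 3.35 and 3.09 against 2.08, 1.69 and 2.05) and Mt1 (metallothionein; 14, 22.9 and 11.4 against 8.44, 11.1 and 9.2) were higher than in other enterocytes and 0 were lower. Mt1 lost its call without B + A 0 (log2 difference 0.52 in place of 0.69). Of 10 acid and ion transport genes outside the rule, Car2, the cytosolic carbonic anhydrase, was higher (1.09, 1.15 and 0.768 against 0.127, 0.0975 and 0.187). Slc4a7, a sodium bicarbonate cotransporter that was not on the list but was among the 10 largest increases, stood at 6.48, 7.37 and 9.15 against 0.64, 0.615 and 1.23 (log2 difference 3.11 ± 0.14; limma adjusted p = 3.5e-14). Car4, the brush border carbonic anhydrase, was lower (0.177, 0.128 and 0.0852 against 1.04, 1.17 and 0.875), as were the guanylate cyclase ligands Guca2a (log2 difference -2.33) and Guca2b (-1.65). The cytosolic and the brush border carbonic anhydrase thus went opposite ways in each library.

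Genes that mark position along the gut were read next. Pdx1, the duodenal homeobox factor, had levels of 0.146, 0.145 and 0.154 in members, 0.0157, 0.004 and 0.0179 in other enterocytes and 0.0173, 0.0423 and 0.0391 in proximal-ranked cells, and fell under the filter on low values. Onecut2, a proximal factor, stood at 3.79, 3.95 and 4.45 in members, 0.796, 0.647 and 0.866 in other enterocytes and 1.06, 1.19 and 2.03 in proximal-ranked cells, without overlap (log2 difference from other enterocytes 2.26, from proximal-ranked cells 1.5). Of the 7 proximal genes tested only Onecut2 was higher than in other enterocytes, and Lct (lactase) was lower (2.3, 2.74 and 2.98 against 5.08, 5.41 and 6.26). Fabp1 (fatty acid binding; 166, 146 and 170 in members, 283, 300 and 301 in proximal-ranked cells), Lct and Apoa4 were lower than in proximal-ranked cells.

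Of the 5 distal genes tested, Slc51a and Slc51b (bile acid export), Cubn (vitamin B12 uptake) and Tmigd1 were lower in members than in other enterocytes. Their list had a median log2 difference of -1.29 beside 0.00 over all genes, of which 3.37% were lower. The bile acid gene Fabp6, which chose the ileal-ranked cells, stood at 3.82, 5.92 and 4.16 in members and 40.4, 31.3 and 19.1 in other enterocytes, so the other enterocytes included ileal cells. Against proximal-ranked cells, where Fabp6 stood at 3.64, 6.09 and 5.55, only Slc51b of the distal genes was lower. Tff2 and Gkn1, measured markers of Brunner glands and stomach, had 0 UMIs in members, which allows 0.0541, 0.084 and 0.0798 UMIs per 10000.

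Members had high Reg1, by the rule, and the Reg3 genes were below their levels in other enterocytes. Of 7 antimicrobial and villus base genes tested, Reg3a, Reg3b and Reg3g, lectins that act on bacteria, were lower than in other enterocytes and 0 were higher. Reg3a stood at 1.91, 1.32 and 1.49 against 8.31, 8.06 and 8.14, Reg3b at 174, 125 and 133 against 363, 388 and 296, and Reg3g at 164, 156 and 120 against 264, 283 and 223. Members were below in every library for all 3 genes. Reg genes share sequence, and how reads shared by them were counted was not given in the sources used here. Against proximal-ranked cells only Reg3a passed both lines (log2 difference -2.24).

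Brush border and fat genes were lower on balance. Among the brush border enzymes tested, Dpp4, Ace, Enpep and Enpp7 were lower than in other enterocytes and 0 were higher, and these genes were also lower than in proximal-ranked cells. Enpp7 (alkaline sphingomyelinase) stood at 0.0433, 0 and 0.0382 against 1.19, 1.14 and 1.39 in other enterocytes, and Dpp4 (a peptidase) at 1.27, 0.885 and 0.782 against 4.15, 3.1 and 3.1. Alpi, intestinal alkaline phosphatase, went the other way, at 17, 17.1 and 17.9 against 4.69, 3.98 and 4.95, although the other enterocytes had been ranked with it. Of 8 fat genes tested, Scarb1 (a lipoprotein receptor) was higher, and Cd36 (fatty acid uptake), Apoc3 and Npc1l1 (cholesterol uptake) were lower. The shares over all genes were 2.42% higher and 3.37% lower. Cd36 lost its call without B + A 0 (log2 difference -1.02) and without B + A 10 (-0.83). Other enterocytes were ranked on 7 fat and brush border genes, and 76.6%, 75.8% and 59.7% of members passed that same line, so these lists are the ones that the choice of comparison cells touches most.

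Sugar and amino acid transport had 2 of 9 genes lower, Slc7a8 and Slc15a1, and 0 higher. Over all genes counted 2.42% were called higher and 3.37% lower, so a count of 0 in a short list is near the share over all genes. None of 6 villus tip genes, 13 enterocyte transcription factors or 5 p53 targets was called against other enterocytes by limma. Hnf4a, for example, stood at 2.31, 1.61 and 1.78 against 2.14, 1.62 and 1.65, Cdx2 at 0.628, 0.588 and 0.654 against 1.08, 0.979 and 0.785 (limma adjusted p = 0.048, under the fold), and Cdkn1a at 2.83, 2.03 and 2.7 against 3.19, 2.41 and 2.67. Of 9 antigen presentation genes, H2-Aa, H2-Ab1, Cd74 and H2-DMa of the class II pathway were lower, and the class I genes B2m, H2-K1 and H2-D1 were within 1.1-fold. Cd74 and H2-Aa lost their calls without B + A 0, at log2 differences of -0.43 and -0.77.

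Over all genes counted, the 10 genes with the largest increase over other enterocytes were Cybrd1, Foxq1, Slc4a7, Atp2b1, Ncoa4, Nadk2, Gsta4, Sult6b2, Gm3776 and Tnni1. Of these, Cybrd1, Ncoa4 and Atp2b1 were list genes already given above. Foxq1, a forkhead factor, stood at 1.14, 1.51 and 1.71 in members, 0.0403, 0.0431 and 0.156 in other enterocytes and 0.209, 0.105 and 0.343 in proximal-ranked cells (log2 difference from other enterocytes 3.15). Nadk2, the mitochondrial NAD kinase, stood at 1.2, 1.09 and 1.27 against 0.11, 0.129 and 0.106, and the sulfotransferase Sult6b2 at 0.429, 0.799 and 0.654 against 0.0316, 0.0192 and 0.043. Gsta4 and Gm3776 are glutathione transferase genes with close relatives, so their reads may be divided among copies. Papss2, which makes the sulfate donor, and the secreted protein Prap1 were named after their values had been seen. Papss2 stood at 26.2, 29 and 27.8 against 5.53, 5.09 and 6.01, and Prap1 at 177, 178 and 174 against 53.5, 49.9 and 55. All 12 of these genes were higher than in other enterocytes in each of the 3 libraries.

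The 10 genes with the largest decrease were Slc34a2, Enpp7, Slc5a12, Slc5a8, Prss30, Fam151a, Tmigd1, Dnase1, Glud1 and Sepp1. The monocarboxylate carriers Slc5a12 (0.0555, 0.0638 and 0.0646 against 1.14, 0.875 and 1.3) and Slc5a8 (0.0411, 0 and 0 against 0.758, 0.594 and 0.717) were at most 0.0646 in members. Sepp1, the selenium carrier protein, stood at 2.53, 1.91 and 2.63 against 16.4, 11.6 and 12.4, and Glud1, glutamate dehydrogenase, at 0.414, 0.338 and 0.263 against 2.7, 2.27 and 2.29. Slc5a8, Fam151a and Tmigd1 were not lower than in proximal-ranked cells by limma (log2 differences of -0.58, -0.31 and 0.04), and the other 7 were.

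Depth differed between the libraries, so each cell was also thinned to 1000 UMIs before cells with a UMI were counted. Atp2b1 was then seen in 52.1%, 65.2% and 63.7% of members and in 13.4%, 10.3% and 11.9% of other enterocytes. Papss2 was seen in 86.2%, 89.4% and 91.1% against 29.9%, 31% and 34.6%, and Slc4a7 in 43.6%, 48.5% and 59.7% against 5.16%, 5.52% and 9.86%. Without thinning the Atp2b1 shares were 95.7%, 98.5% and 90.3% against 52.8%, 41.9% and 30.2%. For Cybrd1 the thinned share of members was 5.32% (exact binomial 95% interval 1.75% to 12%), 9.09% (3.41% to 18.7%) and 3.23% (0.886% to 8.05%), against at most 0.296% of other enterocytes. These intervals overlapped between the libraries, but they rest on few members with a UMI and do not show equal Cybrd1 levels. At this depth most members without a UMI cannot be told from cells without the mRNA.

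**Figure D3:**
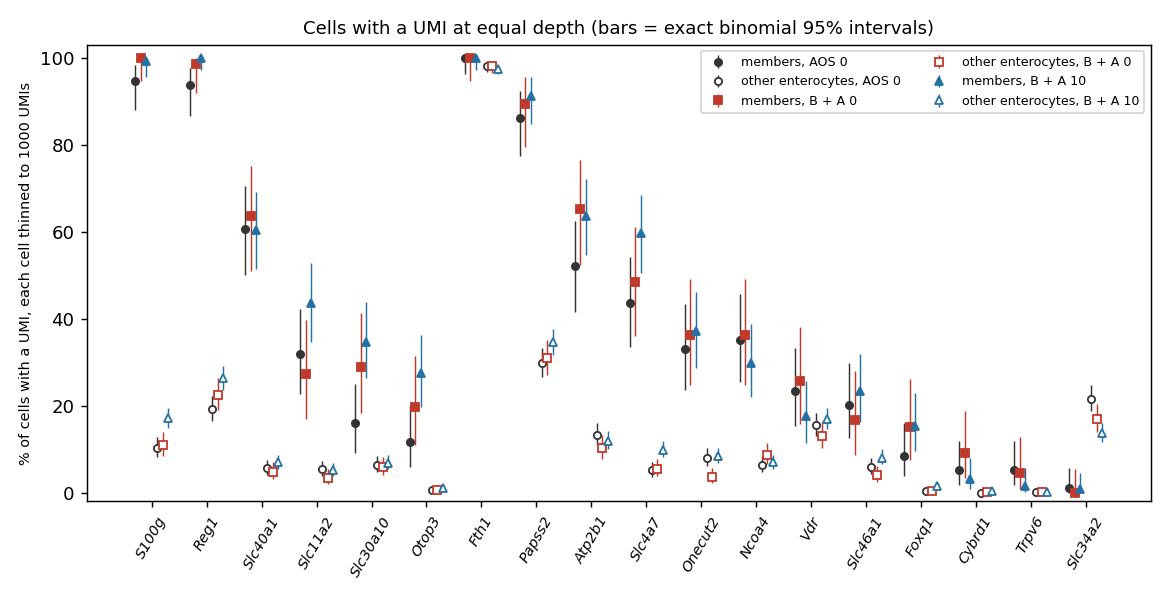
Percent of cells with a UMI after thinning each cell to 1000 UMIs, for the ranking genes and other genes named above. Members (filled) and other enterocytes (open) of the 3 libraries are shown with exact binomial 95% intervals. Atp2b1 was seen in 52.1% to 65.2% of members and 10.3% to 13.4% of other enterocytes, Fth1 in nearly every cell of both, and Cybrd1 and Trpv6 in under 10% of members.

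Members varied widely among themselves. Per cell S100g ran from 2.86 to 545 UMIs per 10000 (median 87.2) among AOS 0 members, from 26.2 to 645 (median 153) among those of B + A 0 and from 17.4 to 875 (median 162) among those of B + A 10. Fth1, which was not in the rule, ran from 36.2 to 469 (median 183), from 110 to 470 (median 218) and from 55.8 to 394 (median 181) in library order, beside medians of 53.1, 60.3 and 49.7 in other enterocytes. Rank correlations over members are given as a description, for 94, 66 and 124 cells that share a library and were chosen on a sum of S100g, Reg1 and Slc40a1 among others. S100g went with Prap1 (0.64, 0.71 and 0.51), Alpi (0.57, 0.34 and 0.34) and Slc40a1 (0.52, 0.48 and 0.21), and Apoa4 went with Apoa1 (0.81, 0.69 and 0.65). Reg1 ran against Slc40a1 (-0.22, -0.29 and -0.22), Apoa4 (-0.24, -0.53 and -0.23) and S100g (-0.12, -0.17 and -0.35). Cells chosen on a sum of genes tend to show opposite levels of those genes, and pairs with 1 ranking gene can be shaped by the choice as well.

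**Figure D4:**
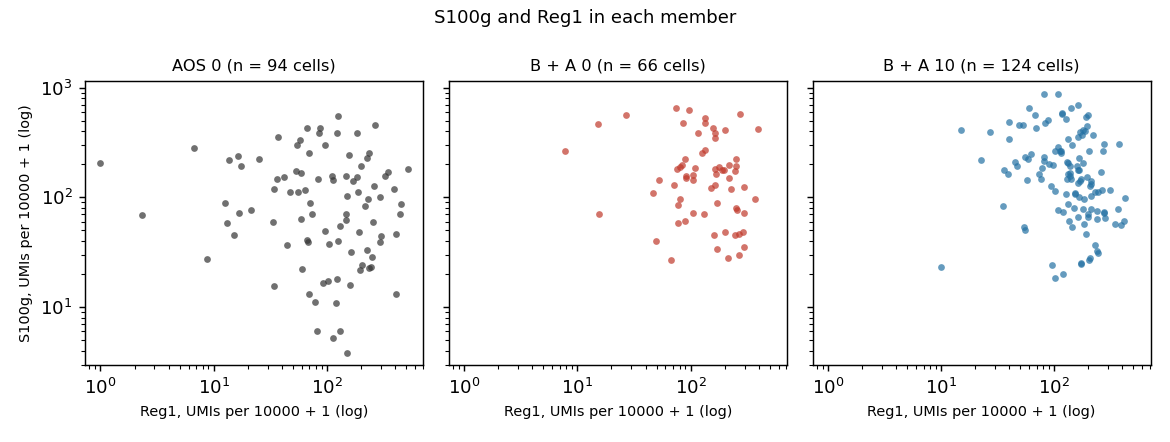
S100g against Reg1 in each member, both as UMIs per 10000 plus 1 on log axes, with 1 panel for each library and 1 point per cell. Cells with high S100g occurred at low and high Reg1, and AOS 0 held members with S100g down to 2.86 UMIs per 10000, below the lowest of 26.2 in B + A 0 and 17.4 in B + A 10.

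Markers of other cell types were summed over members. The 7 goblet markers summed to 89.4, 77.9 and 90 UMIs per 10000 of all member UMIs, beside 41.4, 95.6 and 96.7 in other enterocytes. Per cell the goblet sum had a median of 23.1, 57.8 and 50.3 in members and 21.4, 57.4 and 52.4 in other enterocytes, with 1 member of AOS 0 at 2841, so a few cells carried the higher sum of AOS 0. The 24 Paneth markers summed to 28.6, 71 and 61.7 in members and 29.8, 66.9 and 48.7 in other enterocytes, and each list was lowest in AOS 0 among other enterocytes. T cell markers, 7 of 7 measured, summed to 1.44, 3.3 and 4.31 in members beside 2.41, 5.09 and 5.77. Stem and dividing markers summed to 1.28 to 1.64, enteroendocrine markers to 1.89 to 2.58, and tuft, red blood cell and pancreas markers to at most 0.293. In AOS 0 members 70 of 73 Ghrl UMIs were in 1 cell. Of all members 1, 0 and 3 were among the 5% of cells with the highest doublet scores of their library.

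Between treatments the levels are the summed UMIs of the members per 10000 member UMIs, and each ratio has a 95% interval that covers counting error only. Genes with at least 100 UMIs over the members of both libraries were compared, and a fold of 1.5 was the line. From AOS 0 to B + A 0, 27 of 1374 genes (1.97%) were higher and 50 (3.64%) lower. From B + A 0 to B + A 10, 30 of 1098 (2.73%) were higher and 37 (3.37%) lower, and from AOS 0 to B + A 10, 61 of 1398 (4.36%) were higher and 80 (5.72%) lower. Median ratios were 0.987, 0.988 and 0.971. Because the AOS 0 line was lower, each comparison with AOS 0 was repeated with the B + A 10 line in all libraries, an alternative added after the data had been seen. That line was not adjusted for depth. S100g, for example, had a ratio of B + A 0 to AOS 0 of 1.69, which was 1.17 with 1 line, and of B + A 10 to AOS 0 of 1.89, which was 1.24.

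Iron and calcium genes with enough UMIs to be compared between libraries were few. Over all genes, 1.97% were past the fold upward and 3.64% downward for B + A 0 to AOS 0. These shares were 2.73% and 3.37% for B + A 10 to B + A 0, and 4.36% and 5.72% for B + A 10 to AOS 0. Lists this short cannot show a share that differs from these. Of 8 iron genes outside the rule that were compared between B + A 0 and AOS 0, 0 were past the fold upward and 1, Tfrc, downward, with a median ratio of 1.09. Between B + A 10 and B + A 0, 0 of 6 passed it. Between B + A 10 and AOS 0, of 9 compared, Pcbp1 was past it upward (1.64, 1.3 to 2.07, or 1.47 with 1 line) and Tfrc downward (0.397). Cybrd1 (65, 24 and 24 UMIs) and Trpv6 (22, 12 and 5 UMIs) had too few UMIs to be compared, at summed levels of 1.17, 0.672 and 0.638 for Cybrd1 and 0.396, 0.336 and 0.133 for Trpv6. With 1 line these levels were 1.97, 0.728 and 0.638 for Cybrd1 and 0.568, 0.364 and 0.133 for Trpv6, both highest in AOS 0. Fth1 stood at 198, 215 and 184, with ratios of 1.09 (1.06 to 1.12) for B + A 0 to AOS 0 and 0.854 (0.827 to 0.882) for B + A 10 to B + A 0, beside 1.06 and 0.894 in other enterocytes. Ncoa4 stood at 3.62, 4.67 and 4.79 and Atp2b1 at 9.37, 10.4 and 10.2, and none of their ratios passed the fold. Of 3 calcium genes compared (Atp2b1, Vdr and Cldn15), 0 were past it in any of the 3 comparisons. Tfrc stood at 1.68, 0.728 and 0.665, a ratio of 0.434 (0.27 to 0.677) for B + A 0 to AOS 0 beside 0.739 (0.603 to 0.902) in other enterocytes. Its interval in members overlapped that in other enterocytes, and AOS 0 was the high library.

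Metallothioneins, which bind zinc, were lower in B + A 10. Mt1 stood at 13.9, 22 and 12.4, with ratios of 1.58 (1.43 to 1.75) for B + A 0 to AOS 0, or 1.26 with 1 line, and 0.561 (0.499 to 0.63) for B + A 10 to B + A 0. In other enterocytes these were 1.23 and 0.87. Mt2 stood at 2.97, 3.53 and 1.14, with 0.324 (0.224 to 0.462) for B + A 10 to B + A 0 beside 0.718 (0.625 to 0.825) in other enterocytes. B + A 0 was the high library for Mt1. For Mt2 the ratio of B + A 0 to AOS 0 was 1.19 (0.933 to 1.5), or 0.939 with 1 line, so its order between these libraries turned with the line. For both genes the intervals of members and other enterocytes did not overlap for B + A 10 to B + A 0. That difference between the classes was not tested over animals.

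Cd74, the class II invariant chain, stood at 6.85, 1.99 and 6.91 in members. Its ratios were 0.29 (0.222 to 0.375) for B + A 0 to AOS 0 and 3.48 (2.67 to 4.59) for B + A 10 to B + A 0, beside 0.572 and 1.25 in other enterocytes, and 0.268 and 3.56 with 1 line. B + A 0 was the low library, with UMIs in 33 of 66 members, beside 62 of 94 in AOS 0 and 80 of 124 in B + A 10. H2-Ab1 stood at 1.78, 0.84 and 1.17. Of 5 antigen presentation genes compared between B + A 0 and AOS 0, these 2 were past the fold and both were lower, and B2m, H2-K1 and H2-D1 had ratios of 0.845 to 0.905. Over all genes 1.97% were past the fold upward and 3.64% downward in this comparison.

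Some genes induced by interferon, named by the size of their ratio and not from a list, differed between libraries. Ifi27l2b stood at 14.4, 6.27 and 32.7, with ratios of 0.436 for B + A 0 to AOS 0 and 5.21 (4.52 to 6.04) for B + A 10 to B + A 0, beside 0.435 and 5.43 in other enterocytes. Isg15 stood at 14.3, 8.82 and 13.6 and Ifit1 at 7.67, 6.33 and 10.1, both lowest in B + A 0. The ratios of Isg15 were 0.616, or 0.675 with 1 line and then inside the fold, and 1.54, beside 0.621 and 1.35 in other enterocytes, and those of Ifit1 were 0.824 and 1.59 beside 0.713 and 1.58. Ifi27l2a, a paralog, ran the opposite way at 3.21, 7.61 and 3.67, with ratios of 2.37 and 0.482 beside 1.42 and 0.688 in other enterocytes. Paralogs share sequence, and how shared reads were counted was not given in the sources used here.

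Hspa8, a chaperone, stood at 3.04, 7.22 and 8.38, so it was lowest in AOS 0, with ratios to AOS 0 of 2.37 in B + A 0 and 2.75 in B + A 10 beside 1.86 and 2.36 in other enterocytes. Ccl5, a chemokine of T cells, stood at 1.06, 3.36 and 6.01, in the same order as the T cell marker sum of 1.44, 3.3 and 4.31, whose part in it was not tested. Lyz1, a Paneth gene, stood at 1.55, 5.68 and 2.85, with ratios of 3.67 and 0.501 beside 2.92 and 0.471 in other enterocytes, and the Paneth marker sum of members was 28.6, 71 and 61.7. Spink1, a trypsin inhibitor, stood at 30.2, 37.2 and 55.6, highest in B + A 10. Ada, adenosine deaminase of the villus tip, stood at 2.96, 0.672 and 0.638, but 48 of its 164 UMIs in AOS 0 were in 1 of 23 cells, and Ly6a stood at 5.69, 2.94 and 2.79.

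The other genes that the naming rule picked were mostly ribosomal and mitochondrial. Rps29 (16.2, 24 and 26.5), Atp5k (8.79, 12.2 and 17), Ndufa1 and Cox7a1 were highest in B + A 10, and Rps2 (10.6, 10.1 and 6.25), Rps7, Rpl22l1, Uqcrc2 and Gm8210 were lowest there. With 1 line the ratios of Rps2, Rps7, Uqcrc2 and Gm8210 to AOS 0 were 0.802, 0.754, 0.7 and 0.766, inside the fold, and those of Atp5k and Cox7a1 were 1.99 and 2.27. Gpx2, a glutathione peroxidase, stood at 5.26, 5.91 and 3.38 and Gstm3 at 4.29, 5.51 and 2.92. Fabp6 (3.84, 5.82 and 4.07), LOC547349, Cldn3 and Arf1 passed the fold between B + A 0 and AOS 0, and with 1 line none of these 4 genes did (ratios of 1.26, 1.36, 0.804 and 0.683).

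The absorptive lists outside metal transport were also short. Over all genes 1.97% to 5.72% were past the fold in 1 direction, so a count of 0 in a short list is near that share. For fat absorption 10 genes and for brush border enzymes 9 genes were compared, and 0 passed the fold in either direction in any comparison. Apoa4, for example, stood at 50.2, 41.8 and 40.3 and Alpi at 15.2, 16.8 and 17.7. The proximal genes, 6 or 7 by comparison, also had 0 past the fold, and the p53 target with enough UMIs, Cdkn1a, stood at 2.74, 2.02 and 2.77. Slc15a1, the peptide carrier, stood at 1.68, 1.88 and 3, with a ratio of B + A 10 to B + A 0 of 1.6 (1.17 to 2.2) beside 1.71 in other enterocytes.

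**Figure D5:**
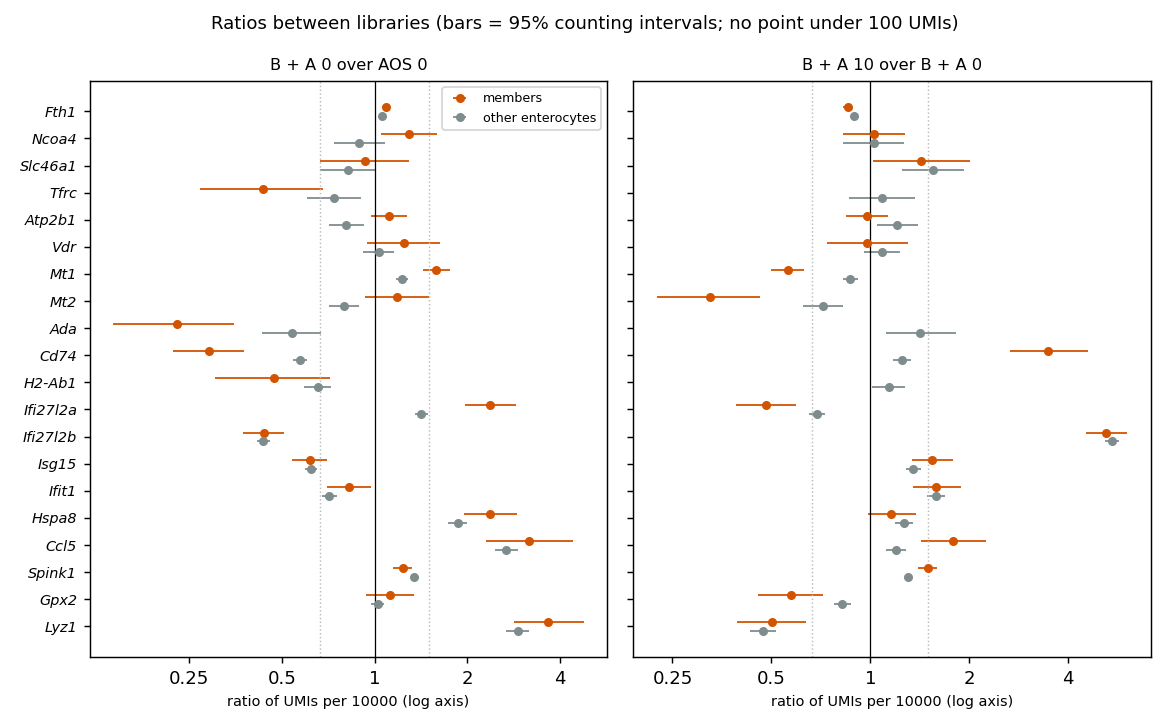
Ratios of summed UMIs per 10000 (log axis) of B + A 0 over AOS 0 and of B + A 10 over B + A 0 for 20 genes, in members (orange) and other enterocytes (grey), with 95% counting intervals and dotted lines at a fold of 1.5. Fth1 and Atp2b1 lie near 1 in both panels, and Cd74 in members goes from 0.29 to 3.48.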

How the data were processed

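Single intestinal cells were measured with the 10x 3′ version 2 kit in 3 libraries. Each deposited value is ln(1 + x), a natural log, where x is a count of UMIs scaled to 10000 per cell (13891 genes, 12653 cells), which the authors made with Cell Ranger 2.2.0 on mm10 with a forced cell number and filtered in Seurat (at least 200 genes per cell and 3 cells per gene). Whole UMIs were recovered for 100% of values (tolerance 0.01). A forced cell number can keep droplets with few UMIs, and pooled mice leave no animal replicates.

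Levels between classes were tested with limma 3.58.1 (R 4.3.3), moderated with trend, over 12 values (4 classes in 3 libraries), for genes with a mean of at least 0.1. Ratios between libraries used summed UMIs with exact binomial counting intervals. Steps were tested on simulated data with known changes. Depth differed between libraries, so cells were thinned to 1000 UMIs for shares. Doublets were kept, and Scrublet (30 components) scores served an alternative. Named genes are the 6 ranking genes, the lists, the 10 largest and 10 smallest differences from other enterocytes, and the 6 largest and 6 smallest ratios per library pair among genes with at least 300 UMIs. The members and lists were chosen with earlier results of these data known. Alternatives were the share taken as members, ranking without Reg1 or on thinned cells, doublets or cells under 500 genes left out, the pseudocount, the filters, fold, scaling and each library left out. Scrublet ran in scanpy 1.11.5 and intervals in scipy 1.17.1, with pandas 2.3.3, numpy 2.4.6 and matplotlib 3.10.9 under Python 3.11.15. Promoters are from RefSeq. A result on 1 listed gene is not reported here.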

Additional observations from a re-analysis of the deposited data

Results flagged for a closer look

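Clca1, S100a6 and Stard10 had ratios past the fold of 1.5 that pointed one way in members and the other way in other enterocytes, each with a counting interval on 1 side of 1. The difference between the classes was not tested, since each group is 1 library.

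Clca1, a goblet cell gene, had a ratio of B + A 0 to AOS 0 of 0.533 (0.354 to 0.784; 36 and 105 UMIs) in members and of 1.86 (1.62 to 2.13) in other enterocytes. Its ratio of B + A 10 to AOS 0 was 0.590 (0.403 to 0.852) in members and 1.58 in other enterocytes. The summed goblet markers stood at 89.4, 77.9 and 90 UMIs per 10000 in members, with AOS 0 first and B + A 10 last, and 41.4, 95.6 and 96.7 in other enterocytes, while the medians per cell were 23.1, 57.8 and 50.3 in members. The largest goblet sum of a single member was 2841, 906 and 1512 UMIs per 10000 in the same library order. A few cells thus carried much of the goblet sum of AOS 0 members, whose median was 23.1. The part of these cells and of the goblet markers in the Clca1 ratio was not tested.

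S100a6, a calcium binding protein, had a ratio of B + A 0 to AOS 0 of 0.663 (0.433 to 0.996; 35 and 82 UMIs) in members and 1.58 in other enterocytes, and of B + A 10 to AOS 0 of 0.612 (0.398 to 0.923) and 1.56. Stard10, a lipid transfer protein, had a ratio of B + A 0 to AOS 0 of 0.601 (0.377 to 0.933; 29 and 75 UMIs) in members and 1.53 in other enterocytes.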

How the results depend on the processing

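No paired analysis between treatments was possible because each group has 1 library and the groups share only the replicate number 1. The class comparisons had the library as a block. Of 947 alternative values of the 73 named genes compared with other enterocytes, 901 kept their direction and call, 39 lost the call, 7 gained it and 0 reversed. With a pseudocount of 1, 54 genes were higher and 78 lower than in other enterocytes, 47 and 38 than in proximal-ranked cells and 285 and 153 than in ileal-ranked cells. Without the filter on low values 170 genes were higher than in proximal-ranked cells. Leaving out 1 library gave 96 to 126 genes higher and 155 to 170 lower than in other enterocytes, 134 to 233 and 95 to 127 than in proximal-ranked cells, and 1019 to 1205 and 378 to 406 than in ileal-ranked cells, with the lowest counts of higher genes against the first 2 classes without B + A 0 (96 and 134) and 181 against proximal-ranked cells without AOS 0. These fits have fewer libraries.

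For higher and lower genes between libraries, in the order B + A 0 to AOS 0, B + A 10 to B + A 0 and B + A 10 to AOS 0, a fold of 2 gave 8 and 8, 3 and 7, and 9 and 12. A minimum of 300 UMIs gave 5 and 6, 5 and 11, and 17 and 9, from fewer genes. The top 5% of cells gave 54 and 78, 70 and 68, and 108 and 139. The top 2% gave 27 lower genes for B + A 0 to AOS 0, and 39 higher and 33 lower for B + A 10 to AOS 0. With 1 line for all libraries 32 genes of B + A 0 and 41 of B + A 10 were lower than in AOS 0, in place of 50 and 80. The cause was not tested. Ranking without Reg1 kept 260 of the 284 members and ranking on thinned cells 235. The 66 to 124 members a library gave 357276 to 555064 UMIs, and the intervals of the ratios cover this counting error only.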
